A study of Mus musculus with 43 samples.

Results

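The cytosolic ribosomal protein genes were followed through bulk RNA-seq and single-cell RNA-seq of mouse intestinal organoids and sorted crypt cells. Members were all symbols of the form Rpl or Rps with a protein number, together with Rplp0, Rplp1, Rplp2 and Rpsa, and without pseudogenes and copies whose names end in l and a digit. This gave 94 of the 23951 genes of the bulk tables and 100 of the 54307 gene rows of the single-cell files. Of the 94, 46 encode proteins of the large (60S-forming) subunit, 31 encode proteins of the small subunit, 7 are paralogs such as Rps4l and Rps27l, and 10 match by spelling only, being kinases or binding partners such as Rps6kb1. The first 3 kinds, 84 genes in the bulk tables and 89 in the single-cell files, are called ribosomal protein genes here, and the spelling matches are reported apart.

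The organoids were primary intestinal cultures of wild-type C57BL/6 mice. Bulk RNA-seq covered 6 groups of 3 libraries: non-irradiated organoids of day 7 (D7), organoids irradiated with 4 Gy on day 4 and taken at D7, and organoids irradiated in the same way but taken at day 11 (D11). In each of these conditions, vehicle or TGFB1 at 2 ng/mL, a cytokine of the transforming growth factor beta family, was given on day 6 for 24 h. Single-cell RNA-seq (PIPseq T2) covered D8 organoids irradiated with 4 Gy on day 4 and exposed to 1 ng/mL TGFB1 for 6, 15 or 24 h, with a vehicle library of 24 h labelled 0 h, 1 library each. It also covered Ki67-RFP+ DAPI- crypt cells sorted from the proximal small intestine of Mki67tm1.1Cle/J mice, in 1 library of a non-irradiated littermate and 2 libraries taken 56 h after 12 Gy of whole-body irradiation. The Ki67 reporter was used to enrich cycling cells, and the strainer for crypts differed (70 μm without and 100 μm with irradiation). No source used here gives the age of the animals or says whether bulk replicates were separate cultures, so p-values measure the spread between these libraries, which may be technical.

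Each cytosolic ribosome carries a large and a small subunit, and nearly all of their proteins are needed in equal number for assembly. Their mRNAs are among the most abundant of a growing cell. Most of them begin with a 5′ terminal oligopyrimidine (TOP) tract, a run of C and U through which mTOR signalling and the protein Larp1 control translation and stability of the whole class together. In the intestinal crypt, stem and transit-amplifying cells depend on high protein synthesis, and differentiated enterocytes divide no more. Ribosomal protein genes also have many processed pseudogenes, so short reads from them can match several places in the genome.

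The start regions below show examples of the pyrimidine tract in members of both subunits, and the paralogs Rps27l, which carries a pyrimidine run upstream of its start, and Rpl36al, which carries no such run. Each window holds 12 bases before and 18 bases from the annotated start in RefSeq (GRCm38.p6), read 5′ to 3′ on the coding strand, and capitals mark the run of C or T.
Rplp2, chr7:141447639-141447668, plus strand: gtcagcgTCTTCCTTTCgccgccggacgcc
Rpl15, chr14:18270969-18270998, minus strand: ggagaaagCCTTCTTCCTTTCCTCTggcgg
Rpl35, chr2:39005114-39005143, minus strand: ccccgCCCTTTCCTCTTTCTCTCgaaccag
Rpl38, chr11:114668568-114668597, plus strand: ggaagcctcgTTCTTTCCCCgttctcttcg
Rps6, chr4:86857350-86857379, minus strand: cggaagtcgggCCTCTTTTTCgtgacgcct
Rps10, chr17:27635227-27635256, minus strand: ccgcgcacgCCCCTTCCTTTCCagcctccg
Rps27, chr3:90213631-90213660, minus strand: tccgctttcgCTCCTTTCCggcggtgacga
Rpl36al, chr12:69184050-69184079, minus strand: tcccgtcgctcaggttcagttccgacttcc
Rps27l, chr9:66946074-66946103, plus strand: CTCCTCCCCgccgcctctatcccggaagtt
A run of at least 7 C or T within 10 bases of the start was present in 35 of 77 promoter entries of 65 ribosomal protein genes (45.5%), against 20.2% of all 32851 entries. The motif CGGAAG on either strand of the 300 bases around the start was found in 59.7% of ribosomal protein entries and 16.9% of all entries. CTTTCC, which can lie inside a pyrimidine run, was found in 49.4% and 26.6%, and TATAAA in 9.09% and 13.6%. These are matches of letters in a window and not mapped start sites or bound factors.

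Bulk values were length- and depth-scaled fragment values (FPKM), and the number of reads behind them is unknown. Summed FPKM per library ran from 447728 to 621996, the upper quartile of expressed genes from 23.7 to 25.3 FPKM, and 11040 to 11361 genes lay above 1 FPKM. All 8 epithelial markers checked exceeded 1 FPKM in every bulk library, with a summed level of 5224 to 15975 FPKM. The summed level was 6.29 to 24.3 FPKM for 9 immune markers, 0.437 to 4.86 FPKM for 8 mesenchymal markers and at most 0.308 FPKM for 5 endothelial markers.

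In all 3 conditions the ribosomal protein genes made up a smaller part of the transcriptome after TGFB1. In non-irradiated D7 organoids they held 6.33, 6.46 and 6.51% of summed FPKM in the vehicle libraries and 5.73, 5.61 and 5.56% in the TGFB1 libraries. In irradiated D7 organoids the shares were 5.00, 5.26 and 5.09% with vehicle and 3.82, 3.85 and 3.70% with TGFB1. In irradiated D11 organoids they were 6.96, 8.20 and 7.52% with vehicle and 5.06, 5.34 and 4.82% with TGFB1. No TGFB1 library reached the vehicle libraries of its condition. The group means were 6.43 ± 0.0939 and 5.63 ± 0.0857% (SD, n = 3 each) without irradiation, 5.12 ± 0.132 and 3.79 ± 0.0796% at irradiated D7, and 7.56 ± 0.625 and 5.08 ± 0.262% at D11. Large-subunit genes went from 2.59 to 1.88% and small-subunit genes from 2.44 to 1.85% at irradiated D7, and from 3.65 to 2.52% and from 3.83 to 2.47% at D11. A share can fall because these mRNAs fell or because others rose, and in bulk RNA a smaller number of cells of a type and less RNA per cell cannot be told apart. The summed epithelial marker RNA was higher with TGFB1 in all 3 conditions, while these shares were lower. The summed level of the 8 markers was 5906 to 5987 FPKM with vehicle and 14314 to 14891 with TGFB1 without irradiation. It was 5972 to 6158 and 14760.1 to 15975 at irradiated D7, and 5224 to 6402 and 6999 to 7691 at D11. All 8 rose at D7 in both conditions by limma, and 1 rose and 3 fell at D11. The summed immune markers were also higher with TGFB1, at 9.85 to 11.8 against 22.3 to 24.3 FPKM without irradiation. They were 6.29 to 7.90 against 14.1 to 15.3 at irradiated D7, and 7.22 to 11.005 against 12.8 to 15.4 at D11. Of 2 immune markers tested by limma in each condition, 1 rose and 1 fell without irradiation, 2 rose at irradiated D7 and 1 rose at D11. Without irradiation Cd68 held 8.25, 9.63 and 7.85 against 20.7, 22.1 and 22.6 FPKM of the sum. Itgam went the other way there, at 1.86, 1.62 and 1.57 against 0.758, 0.824 and 0.864 FPKM. The summed mesenchymal markers were 0.568 to 0.614 against 0.663 to 0.921 FPKM, 0.637 to 0.872 against 3.17 to 4.86, and 0.437 to 0.668 against 1.21 to 2.06 in the same order of conditions. At irradiated D7 Acta2 held 0.332, 0.558 and 0.366 against 2.56, 2.95 and 4.14 FPKM of the sum. Pdgfrb went the other way there, at 0.263, 0.295 and 0.288 against 0.131, 0.119 and 0.0961 FPKM. The part of any of these in the ribosomal protein share was not tested. The total was concentrated in few genes, with 61.0% of it in the 10 most abundant members and 84.5% in the top 20.

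**Figure D1:**
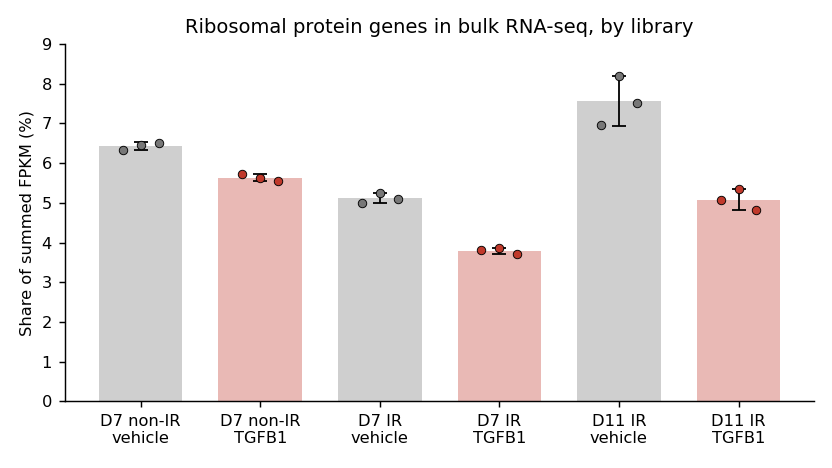
Share of summed FPKM held by ribosomal protein genes (y axis, percent) in the 6 bulk groups (x axis, 3 libraries each); points are libraries and the bar and line are the group mean and SD. In each condition the TGFB1 libraries lie below the vehicle libraries, for example 3.70 to 3.85% against 5.00 to 5.26% in irradiated D7 organoids.

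Gene by gene, the tests (limma on log2 of FPKM plus 1, over all genes averaging 1 FPKM or more in the libraries compared) gave many falls and few rises. In non-irradiated D7 organoids 38 of 74 ribosomal protein genes tested were lower with TGFB1 and 2 were higher, while 34.9% of all genes tested were lower and 33.3% higher, 68.2% in either direction. The median change was -0.17 on the log2 scale for the ribosomal protein genes and -0.02 over all genes. In irradiated D7 organoids 55 of 71 were lower and 4 higher, with 39.7% of all genes lower and 35.8% higher, and the medians were -0.38 and -0.03. In irradiated D11 organoids 53 of 72 were lower and 8 higher, with 31.6% of all genes lower and 32.3% higher, and the medians were -0.64 and 0.01. The TGFB1 libraries lay wholly below the vehicle libraries for 41, 54 and 53 members in these conditions, where the percentages over all genes were 36.8, 41.1 and 34.3%. They lay wholly above for 2, 2 and 7 members, against 35.3, 37.1 and 35.8% of all genes. Among the 69 members tested in all 3 conditions, 26 were lower in each, against 13.5% of all genes tested in all 3. The other members were not tested because their mean lay under 1 FPKM in that table.

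**Figure D2:**
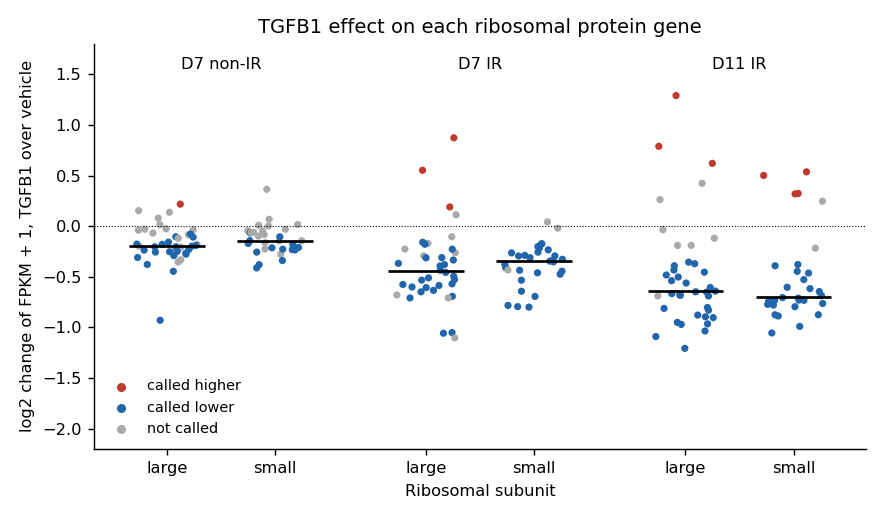
Change with TGFB1 of each ribosomal protein gene tested (y axis, log2 of FPKM plus 1, TGFB1 minus vehicle) for the large and the small subunit (x axis, set out by condition); each point is a gene, and colour marks whether it was called higher, lower or neither, with a black line at the median. Most points lie below 0, the D11 points spread furthest downward, and Rpl5 stands at 1.29 at D11 but at -0.93 and -0.71 at D7.

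The stalk of the large subunit, built from Rplp0 and the acidic proteins Rplp1 and Rplp2, recruits elongation factors to the ribosome. In irradiated D11 organoids Rplp1 stood at 1909, 2631 and 2347 FPKM with vehicle and 1449, 1552 and 1360.0 with TGFB1. The 2 groups did not overlap, and the fall was 0.65 on the log2 scale (SE 0.154, limma adjusted p = 0.00442). At irradiated D7 it was 1732, 1899.9 and 1806 FPKM with vehicle and 1538, 1497 and 1607 with TGFB1, a fall of 0.23 (SE 0.0443, limma adjusted p = 0.000802). Without irradiation the vehicle libraries held 3032, 3227 and 3139.9 FPKM and the TGFB1 libraries 2947, 2927 and 2844, and the fall of 0.11 was small but past the threshold (SE 0.0301, limma adjusted p = 0.00838). Rplp0, the protein that anchors the stalk, stood at 797, 916 and 844 FPKM with vehicle and 607, 676 and 582 with TGFB1 at D11, and fell by 0.45 (SE 0.117, limma adjusted p = 0.00673). Under quantile normalization this call ended, with a change of -0.08 (limma adjusted p = 0.368). Rplp2 fell by 0.90 at D11 (SE 0.193, limma adjusted p = 0.00380), from 119.9, 177 and 162 to 97.9, 84.8 and 61.8 FPKM. Without irradiation Rplp2 was the only stalk gene that missed the threshold, with a change of 0.08 (SE 0.129, limma adjusted p = 0.609). The non-irradiated calls of Rplp0 and Rplp1 ended in a single fit of all 18 libraries (limma adjusted p = 0.307 and 0.320). That of Rplp0 also ended in 3 fits that left out a library.

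Rpl5 and Rpl11 bind the 5S ribosomal RNA, and outside the ribosome this particle inhibits Mdm2, the ubiquitin ligase of p53. Rpl5 departed most from the rest of the class. Its FPKM were 7.51, 6.05 and 5.32 with vehicle and 2.79, 2.42 and 3.22 with TGFB1 in non-irradiated D7 organoids, and 5.20, 5.78 and 5.41 against 2.24, 3.64 and 3.10 in irradiated D7 organoids. At D11 the order was turned, with 2.41, 1.44 and 1.97 FPKM in the vehicle and 5.79, 6.02 and 6.59 in the TGFB1 libraries. The groups did not overlap in any of the 3 conditions. The changes were -0.93 (SE 0.113, limma adjusted p = 3.7e-05), -0.71 (SE 0.118, limma adjusted p = 0.000310) and 1.29 (SE 0.130, limma adjusted p = 1.99e-05). Between irradiated D7 and D11 the effect of TGFB1 on Rpl5 differed by 2.00 on the log2 scale (SE 0.188, limma adjusted p = 6.36e-07). Rpl11 ranged from 0 to 0.916 FPKM over the 18 libraries and was not tested in any condition. In the organoid single-cell libraries both genes were abundant, and their values in CPM (UMIs scaled to a common library total) at 0, 6, 15 and 24 h were 2197, 2013, 1919 and 1788 for Rpl5. Rpl11 stood at 1922, 1789, 1709 and 1583 CPM in the same libraries. Rpl5 thus had a low bulk level and a turn in direction at D11 that the D8 single-cell libraries cannot address. Rpl5 was among 7 members that were lower at irradiated D7 and higher at D11, most of them under 10 FPKM, as given below. Members under 10 FPKM did not all turn, since 5 of 13 rose and 5 fell at D11. Whether read assignment had a part in the level or the turn of Rpl5 was not tested. Mdm2 itself rose by 0.14, 0.52 and 1.17 in the 3 conditions (limma adjusted p = 0.0227, 8.17e-06 and 4.6e-07).

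Among other large-subunit genes the falls ran from slight to more than a log2 unit. Of the large-subunit genes, 22 of 40 were lower and 1 was higher in non-irradiated D7 organoids, 26 of 38 were lower and 3 higher at irradiated D7, and 29 of 39 were lower and 3 higher at D11. Over all genes 34.9, 39.7 and 31.6% were lower and 33.3, 35.8 and 32.3% higher. Rpl8, a core protein next to the peptidyl transferase centre, showed the regular pattern at high level. Its vehicle libraries held 2329, 2333 and 2318 FPKM and its TGFB1 libraries 1957, 1909 and 1977 without irradiation. At irradiated D7 the values were 1888, 1901 and 1863 and 1311, 1344 and 1311 FPKM, and at D11 2189.5, 2722 and 2562 and 1529, 1638 and 1451 FPKM. The groups never overlapped, and the falls were 0.26 (SE 0.0256, limma adjusted p = 5.71e-06), 0.51 (SE 0.0332, limma adjusted p = 1.79e-07) and 0.69 (SE 0.141, limma adjusted p = 0.00188). Rpl15, one of the genes printed above with a long pyrimidine run, fell by 0.45, 0.53 and 0.68 in the 3 conditions (limma adjusted p = 2.36e-05, 4.94e-05 and 1.83e-05). Rpl41, the shortest ribosomal protein and the most abundant member in the bulk tables, fell less. It held 3204, 3598 and 3615 FPKM with vehicle and 3108, 3044 and 3036 with TGFB1 at irradiated D7 (change -0.18, SE 0.0488, limma adjusted p = 0.00671), and 3017, 4749.9 and 4203 against 2632, 2999.7 and 2370.0 at D11 (change -0.56, SE 0.196, limma adjusted p = 0.0290).

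At irradiated D7 the deepest falls of the large subunit past the threshold were those of Rpl26 and Rpl34. Rpl26, a protein at the exit tunnel, held 15.8, 9.18 and 12.2 FPKM with vehicle and 6.98, 3.15 and 6.55 with TGFB1, a fall of 1.06 just past the threshold (SE 0.349, limma adjusted p = 0.0452). Its spread between libraries was wide, its call ended in 4 of the 6 fits that left out a library (limma adjusted p up to 0.118), and at D11 its change was 0.26 (SE 0.197, limma adjusted p = 0.273). At D11 the deepest falls included those of Rpl36 and Rpl22. Rpl22, an RNA-binding protein that the ribosome can work without, stood at 195, 231 and 206 FPKM with vehicle and 96.5, 109.9 and 89.1 with TGFB1, a fall of 1.09 (SE 0.105, limma adjusted p = 1.45e-05). At irradiated D7 it was 120.5, 126 and 117 against 94.3, 99.2 and 98.0 FPKM, a fall of 0.31 (SE 0.0400, limma adjusted p = 3.66e-05). Rpl36 fell by 1.21 at D11 (SE 0.200, limma adjusted p = 0.000874), from 8.00, 13.1 and 14.4 to 5.29, 4.21 and 3.83 FPKM, at a low level and with wide spread between libraries. Rpl23 fell by 0.95 at D11 (SE 0.0980, limma adjusted p = 2.27e-05) but did not pass the threshold at D7, with changes of -0.09 and -0.17 (limma adjusted p = 0.0720 and 0.0556).

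A few large-subunit genes rose. In non-irradiated D7 organoids Rpl7 was the single large-subunit gene that rose, from 451, 471 and 455 FPKM with vehicle to 548, 522 and 531 with TGFB1 (change 0.22, SE 0.0311, limma adjusted p = 0.000101). At D11 Rpl7 fell by 0.39 (SE 0.0937, limma adjusted p = 0.00466). At irradiated D7 the 3 large-subunit genes that rose were Rpl37, Rpl13 and Rpl39. Rpl37 held 9.60, 6.37 and 9.84 FPKM with vehicle and 16.4, 20.1 and 13.1 with TGFB1 and rose by 0.87 (SE 0.214, limma adjusted p = 0.0120). With the replicate number as a block the call of Rpl37 ended (limma adjusted p = 0.0696). Rpl13 held 9.22, 11.5 and 9.69 against 16.1, 16.1 and 13.7 FPKM and rose by 0.55 (SE 0.0845, limma adjusted p = 0.000163), while without irradiation it fell by 0.31 (SE 0.0848, limma adjusted p = 0.0111). Rpl39, which lines the exit tunnel of the nascent chain, rose by 0.19 at irradiated D7 (SE 0.0568, limma adjusted p = 0.0114), with 82.9, 94.7 and 86.2 FPKM against 103, 93.8 and 104, so the groups overlapped. That call ended under scaling to equal FPKM outside the class (limma adjusted p = 0.477) and without vehicle replicate 1 (limma adjusted p = 0.0505). It also ended in a single fit of all 18 libraries (limma adjusted p = 0.408). At D11 it fell by 0.80 (SE 0.270, limma adjusted p = 0.0376).

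None of the small-subunit genes, counted without paralogs such as Rps4l, rose at D7. Of the small-subunit genes, 14 of 31 were lower in non-irradiated D7 organoids, 27 of 30 at irradiated D7, and 24 of 30 at D11, where 4 were higher. The shares lower over all genes were 34.9, 39.7 and 31.6%, so the count without irradiation was the nearest to that of all genes. Rpsa, a protein of the small-subunit head once described as a laminin receptor, held 463, 469.6 and 454 FPKM with vehicle and 349, 343 and 326 with TGFB1 at irradiated D7. At D11 the values were 538, 716 and 655 and 371, 404 and 337 FPKM, and the groups were apart at both days. Its changes in the 3 conditions were -0.23 (SE 0.0506, limma adjusted p = 0.00244), -0.45 (SE 0.0376, limma adjusted p = 1.36e-06) and -0.77 (SE 0.132, limma adjusted p = 0.000622). Rps19, the gene most often mutated in Diamond-Blackfan anaemia, stood at 295, 417 and 412 FPKM with vehicle and 207, 218 and 180.4 with TGFB1 at D11 and fell by 0.88 (SE 0.145, limma adjusted p = 0.000513). At irradiated D7 its fall was 0.29 (SE 0.0353, limma adjusted p = 2.26e-05), from 253, 246 and 238 to 199.6, 203 and 199 FPKM. Rps6, whose protein is the classic substrate of the S6 kinases and whose start region is printed above, fell in each condition, by 0.26, 0.53 and 0.39 (limma adjusted p = 0.000661, 2.78e-05 and 0.00885). Its level was low for a ribosomal protein mRNA, with 8.70, 9.90 and 9.19 FPKM in vehicle and 5.65, 6.34 and 6.26 in TGFB1 libraries at irradiated D7.

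The largest falls of the small subunit differed between days. At irradiated D7 the falls were led by Rps7 and Rps27a, described further on, and by Rps2. Rps2 fell by 0.78 there (SE 0.0443, limma adjusted p = 6.04e-08), from 133, 143 and 133 to 81.3, 79.9 and 74.96 FPKM. At D11 Rps15, whose tail reaches the decoding site, went from 2149.7, 3054 and 2841 to 1324, 1366 and 1147 FPKM (change -1.06, SE 0.165, limma adjusted p = 0.000354). Rps14, the gene lost in the 5q- syndrome, did not pass the threshold at D7, with changes of 0.00 and 0.04 (limma adjusted p = 0.933 and 0.631). At D11 it fell by 0.89 (SE 0.171, limma adjusted p = 0.00132), with 1102, 1662 and 1581 FPKM in the vehicle and 763, 852 and 701 in the TGFB1 libraries. The abundant member Rps26 fell by 0.76 at D11 (SE 0.166, limma adjusted p = 0.00268). Of the other genes whose start regions are printed above, Rpl35 fell by 0.53 and 0.50 and Rps10 by 0.23 and 0.65 at irradiated D7 and D11 (limma adjusted p = 0.000569, 0.000963, 0.0354 and 0.00351). Rps27 fell at D11 by 0.38 (SE 0.0846, limma adjusted p = 0.00315) and had changes of 0.01 and -0.02 at D7 (limma adjusted p = 0.936 and 0.935), and its difference between days did not pass the threshold (limma adjusted p = 0.168). Genes were also split by a run of at least 7 C or T within 10 bases of the start. Such a run need not begin at the start, as in Rps27l. Genes with it had median changes of -0.20, -0.43 and -0.65 in the 3 conditions (29 to 31 genes tested). Those without it had -0.16, -0.36 and -0.45 (22 to 25 genes). The difference between these medians was not tested.

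Some members moved in opposite directions at irradiated D7 and D11. Lower at D7 and higher at D11 were 7 members, namely Rpl5, Rpl30, Rpl34, Rps7, Rps16, Rps23 and Rps27a, while 41 of the 71 tested on both days were lower at both. Over all genes 9.03% were lower at D7 and higher at D11, so 7 of 71 is near that share, and 16.6% were lower at both. Rpl34 held 30.2, 38.5 and 31.7 FPKM with vehicle and 17.7, 14.3 and 14.8 with TGFB1 at D7, a fall of 1.05 (SE 0.101, limma adjusted p = 1.29e-05). At D11 it held 11.4, 19.1 and 21.1 against 33.6, 28.7 and 26.7 FPKM, a rise of 0.79 (SE 0.219, limma adjusted p = 0.0166), and the groups were apart on both days. Rps27a, which is made as a fusion with ubiquitin, went from 3.59, 5.601 and 4.10 to 1.92, 2.59 and 1.83 FPKM at D7 (change -0.80, SE 0.140, limma adjusted p = 0.000554) and from 2.80, 3.29 and 2.16 to 5.13, 4.26 and 3.52 FPKM at D11 (change 0.50, SE 0.147, limma adjusted p = 0.0132). Rpl30 held 60.0, 59.4 and 79.7 against 33.5, 48.0 and 40.5 FPKM at D7 and 27.6, 34.0 and 31.6 against 42.6, 48.3 and 54.3 at D11, with changes of -0.69 and 0.62 (limma adjusted p = 0.0173 and 0.000570). Rps7, another Diamond-Blackfan gene, had changes of -0.80 and 0.32 (limma adjusted p = 2.41e-05 and 0.0177). The rise of Rps16 at D11, 0.54 (SE 0.199, limma adjusted p = 0.0402), came from groups that overlapped, with 2.61, 2.95 and 2.50 FPKM in vehicle and 5.73, 5.07 and 2.73 in TGFB1 libraries. Leaving out TGFB1 replicate 1 ended the D11 calls of Rpl34 (limma adjusted p = 0.0575) and Rps27a (limma adjusted p = 0.0563). The call of Rps16 ended in 5 of the 6 fits that left out a library.

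The effect of TGFB1 on the class was tested for its dependence on irradiation and on day. At D7 the effect was lower in irradiated than in non-irradiated organoids for 33 of 74 members and higher for 3, with 27.8% of all genes lower and 25.3% higher, and the median difference was -0.22 on the log2 scale. The lower differences were led by Rpl26 at -1.21 (SE 0.374, limma adjusted p = 0.0239), a call that ended in 3 fits that left out a library, and Rpl34 at -1.01 (SE 0.120, limma adjusted p = 9.29e-06). Rpl30, Rps27a and Rps7 followed at -0.83, -0.75 and -0.66 (limma adjusted p = 0.00668, 0.00137 and 0.000809). The 3 higher differences were those of Rpl13 at 0.86 (SE 0.133, limma adjusted p = 0.000125), Rpl37 at 0.86 (SE 0.220, limma adjusted p = 0.00646) and Rpl39 at 0.54 (SE 0.142, limma adjusted p = 0.00696). With the replicate number as a block that of Rpl37 was no longer called (limma adjusted p = 0.0563). That of Rpl39 was not called in a single fit of all 18 libraries (limma adjusted p = 0.141). Vehicle levels of Rpl13 were 63.2, 63.2 and 71.3 FPKM without irradiation and 9.22, 11.5 and 9.69 with it. Those of Rpl26 were 59.0, 70.4 and 70.4 against 15.8, 9.18 and 12.2 FPKM. The part of these level differences in the 2 results was not tested.

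Between irradiated D7 and D11 the effect was lower at D11 for 24 of 71 members and higher for 12, with 33.0% of all genes lower and 31.5% higher, so the lower count was near that of all genes and the higher count was below it. The median difference was -0.29, but 0.02 after quantile normalization, where 12 members were lower and 21 higher. Over all genes 3543 of 11456 were lower and 3929 higher in that fit, with a median of 0.04. The higher count of members was thus not above the share of all genes. Whether the class as a whole was lower at D11 depended on the scaling. Scaling the libraries to equal FPKM outside the class moved the median of all genes by 0.22 in this comparison. Rpl5 (2.00), Rpl34 (1.84), Rpl26 (1.32), Rpl30 (1.31) and Rps27a (1.30) led the higher differences (limma adjusted p = 6.36e-07, 0.000149, 0.0188, 0.000122 and 0.000165). Rpl39 (-0.99), Rps14 (-0.93), Rpl23 (-0.78), Rpl22 (-0.78) and Rpl13 (-0.74) led the lower ones (limma adjusted p = 0.0159, 0.000975, 0.000104, 3.77e-05 and 0.0436). The call of Rpl13 ended in 7 of the 12 fits that left out a library (limma adjusted p up to 0.0994), without a filter on low values (0.0524) and under scaling to equal FPKM outside the class (0.0879), and that of Rpl39 under this scaling (limma adjusted p = 0.0540). Without D11 vehicle replicate 1, 40 of 71 members were lower, against 3914 of 11429 over all genes.

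Paralogs did not share a direction. Rps4l, an autosomal relative of the X-linked Rps4x, was the only ribosomal protein gene called higher with TGFB1 in all 3 conditions, as were 14.6% of all genes tested in all 3. It held 24.6, 20.5 and 22.6 FPKM with vehicle and 30.9, 29.1 and 28.5 with TGFB1 in non-irradiated D7 organoids (change 0.37, SE 0.0610, limma adjusted p = 0.000283). At irradiated D7 it held 37.7, 36.4 and 48.1 against 48.6, 52.7 and 47.5 FPKM (change 0.29, SE 0.0990, limma adjusted p = 0.0276), where the groups overlapped. That call ended in 5 of the 6 fits that left out a library (limma adjusted p up to 0.0901) and with libraries scaled to equal FPKM outside the class (change 0.14, limma adjusted p = 0.216). At D11 the values were 19.5, 27.1 and 23.6 and 42.1, 43.6 and 38.7 FPKM (change 0.81, SE 0.1104, limma adjusted p = 0.000145). In the single-cell libraries Rps4l was scarce, at 35.1, 34.3, 36.5 and 45.9 CPM at 0, 6, 15 and 24 h. Rps27l, a p53 target gene, fell by 0.16 and 0.17 at D7 (limma adjusted p = 0.00200 and 0.0353) and had a change of 0.08 at D11 (limma adjusted p = 0.560). Rpl36al fell by 0.19 and 0.42 at D7 (limma adjusted p = 0.00294 and 8.03e-06) and had a change of -0.13 at D11 (limma adjusted p = 0.386). The remaining paralogs of the bulk tables lay near the floor: Rpl10l and Rpl39l were listed at 0 in every library, and Rpl3l, the muscle form of Rpl3, reached at most 0.105 FPKM, and Rps27rt at most 4.39e-06 FPKM.

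The symbols that match by spelling only moved in both directions. Of the 9 tested, 1 rose and 4 fell in non-irradiated D7, 2 rose and 4 fell in irradiated D7, and 3 rose and 2 fell in irradiated D11 organoids. Over all genes 33.3, 35.8 and 32.3% rose and 34.9, 39.7 and 31.6% fell, so several of these counts are near the shares of all genes. Rps6ka4, a stress-activated nuclear kinase, rose from 20.2, 19.3 and 19.8 FPKM with vehicle to 37.0, 37.6 and 38.0 with TGFB1 at irradiated D7, and its changes in the 3 conditions were 0.60, 0.89 and 0.52 (limma adjusted p = 1.25e-07, 1.12e-08 and 0.000444). Its relative Rps6ka5 fell by 0.37, 0.33 and 0.84 (limma adjusted p = 0.00115, 0.00707 and 0.000206). Rps6kb1, the kinase that phosphorylates Rps6, changed by -0.12, -0.35 and 0.32 (limma adjusted p = 0.0378, 9.1e-05 and 0.00812), so its direction was turned at D11. Ribosomal proteins with other symbols are missed by the spelling. Fau fell by 0.39 at irradiated D7 (SE 0.0673, limma adjusted p = 0.000365), and Gnb2l1, the scaffold now called Rack1, fell by 0.29 there and 0.78 at D11 (limma adjusted p = 2.04e-05 and 0.000383).

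The bulk level of a member was a poor guide to its level by UMI counting. Of the 77 subunit genes, 21 had a mean under 10 FPKM over the 18 bulk libraries, 14 lay between 10 and 50, and 42 at 50 or more. The median level was 1.67, 21.2 and 355 FPKM in these classes, whereas the median level in the organoid single-cell libraries was 1807, 2245 and 2417 CPM. Genes under 10 FPKM ranged from 1428 to 4953 CPM. Over 82 ribosomal protein genes above 0 in both, Pearson's r between log CPM in organoids and log FPKM at irradiated D7 was 0.377 and Spearman's rho 0.254, a description across genes that share libraries. FPKM is per length and the UMI count is per molecule tag, so the scales differ by transcript length. Rps12, singled out after its values were seen, was the most abundant member by UMIs at 4953 CPM on average and stood at 1.05 FPKM. Rpl11, at 1922 CPM in the 0 h library (exact 95% Poisson interval 1906 to 1939, counting error only), was under 1 FPKM in every bulk library.

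Members that rose at D11 were mostly of low FPKM. Among genes under 10 FPKM 5 of 13 rose and 5 fell at D11, while among genes at 50 FPKM or more 1 of 42 rose and 41 fell. Over all genes 32.3% were higher and 31.6% lower at D11, close to the shares in the lowest class. The median change at D11 was -0.19 in the lowest and -0.74 in the highest class, and the pseudocount of 1 shrinks the changes of the lowest class. At irradiated D7 the classes were closer, with 0 higher and 10 of 12 lower against 1 higher and 34 of 42 lower. Rpl30 was the gene above 50 FPKM that rose at D11, chosen here after its value was seen. The classes were set after the data were seen, and the part of read assignment between genes and their pseudogene copies was not tested.

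**Figure D3:**
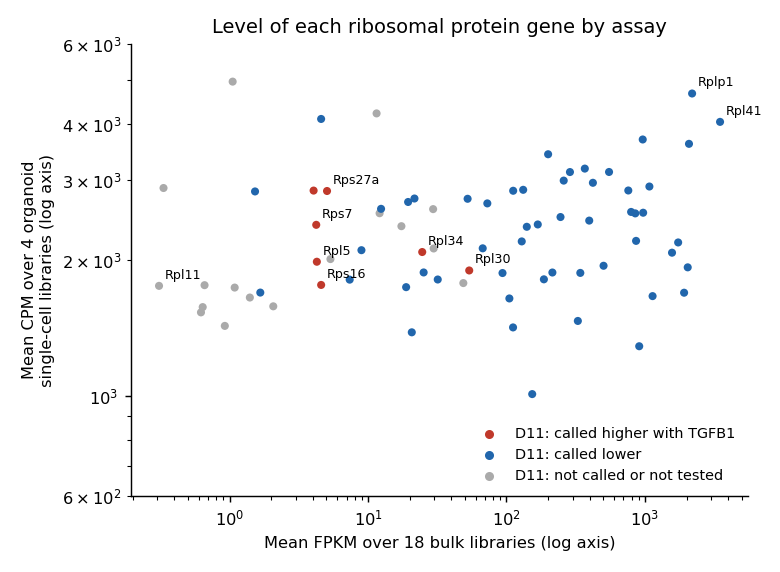
Level of each subunit gene by assay, as mean FPKM over the 18 bulk libraries (x axis, log scale) and mean CPM over the 4 organoid single-cell libraries (y axis, log scale); each point is a gene, and colour marks whether it rose, fell or was not called at D11. Genes under 10 FPKM spread over 1428 to 4953 CPM, a range that overlaps that of the genes at 50 FPKM or more, and most genes that rose at D11 lie at the left.

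Levels could not be compared between the bulk tables for every member. Rpl29 had a vehicle mean of 0.328 FPKM in the non-irradiated D7 table, 1490 FPKM in the irradiated D7 table and 1763 FPKM in the D11 table. Rpl38 had 147 and 12.6 FPKM in the first 2 tables. Among genes averaging at least 1 FPKM in both vehicle groups, which leaves out Rpl29, fold differences between tables were counted. Vehicle means of the 2 D7 tables were at least 4-fold apart for 8 of 71 ribosomal protein genes (11.3%) and 2.34% of all genes. Those of the 2 irradiated tables were so for 0 of 72. Rpl29, with its low level there, was not tested within the non-irradiated table, and in the irradiated tables it fell by 0.44 at D7 and 0.67 at D11 (limma adjusted p = 7.96e-07 and 0.00575). It is 1 of the 33 lower differences between irradiated and non-irradiated organoids (-0.34, SE 0.0787, limma adjusted p = 0.00220). The non-irradiated libraries held 0.280, 0.379 and 0.324 FPKM of Rpl29 with vehicle and 0.278, 0.115 and 0.345 with TGFB1. With the pseudocount of 1 almost no change can be measured at that level. This difference of Rpl29 therefore restates its irradiated fall and cannot show a dependence on irradiation. The cause of these level differences was not tested.

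In single cells of irradiated D8 organoids the share of UMIs held by the 89 ribosomal protein genes was 20.2% at 0 h, 19.2% at 6 h, 18.01% at 15 h and 16.5% at 24 h of TGFB1. The exact 95% binomial interval at 0 h was 20.17 to 20.20%, and it covers counting error only. With 1 library per time there is no test of these differences. The libraries held 2932, 4283, 2890 and 2218 cells with a median of 8202, 6709, 7805 and 10441 UMIs, so the 24 h library with the lowest share was the deepest per cell. The large subunit went from 10.9 to 8.94% and the small subunit from 9.06 to 7.41% between 0 and 24 h. The median over cells was 20.3, 19.6, 17.7 and 14.8%. Mitochondrially encoded genes held 3.53, 3.85, 5.04 and 5.00% of UMIs, and ribosomal protein pseudogenes 0.279, 0.303, 0.267 and 0.209%, and their part in the result was not tested. Libraries shared at most 1 cell barcode with each other.

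Individual members followed the total. At 24 h 51 of the 83 members with at least 100 UMIs in each library were at least 1.2-fold lower than at 0 h and 1 was higher, while 21.7% of all genes were lower and 26.8% higher. At 6 h 1 member was lower and 0 higher (9.49% and 13.0% of all genes), and at 15 h 8 were lower and 0 higher (18.6% and 21.1%). The median ratio to 0 h was 0.955, 0.885 and 0.807 for the members at 6, 15 and 24 h. Rplp1, the stalk protein and, after Rps12, the most abundant member by UMIs, stood at 5553, 4983, 4402 and 3712 CPM at 0, 6, 15 and 24 h, a ratio of 0.669 at the end. Rps6 stood at 2429.9, 2278, 1972 and 1717 CPM at the same times. Rpl18 went from 2174 to 1509.8 CPM, Rpl36a from 2256 to 1610.5 CPM, and Rps27l from 912 to 641 CPM. Each of these 5 ended at about 0.7 of its starting level, from 0.669 for Rplp1 to 0.714 for Rpl36a. Within the fold were 31 members, and Rpl28 is given as an example chosen after its values were seen. Rpl28 stood at 1535, 1402, 1581 and 1599 CPM. The member past the fold upward was the scarce Rps4l, at a ratio of 1.31, which also rose in bulk. Rps27a, which fell at irradiated D7 and rose at D11 in bulk, stood at 3175, 3180.0, 2647 and 2349 CPM.

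**Figure D4:**
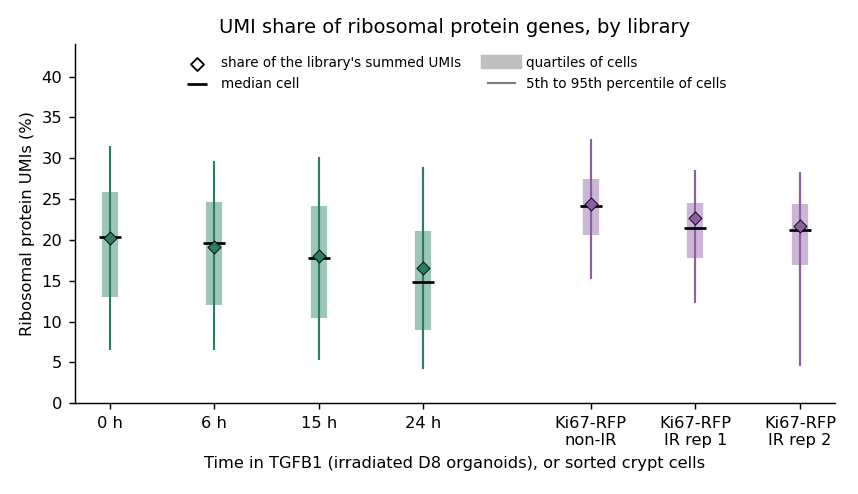
Share of UMIs held by ribosomal protein genes (y axis, percent) in the 7 single-cell libraries (x axis); the diamond is the share of the summed library, the black tick the median cell, the thick bar the quartiles and the thin line the 5th to 95th percentile over cells. The summed share goes from 20.2 to 16.5% over 24 h in organoids and is 24.4% in non-irradiated against 22.7 and 21.7% in irradiated Ki67-RFP+ cells.

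Cell clusters, built without the ribosomal protein genes and named by fixed markers, differed more in this share than the times did. Over the 4 organoid libraries the stem-like cluster held 26.7% of its UMIs in ribosomal protein genes, the proliferating-like clusters 23.8%, the goblet-like cluster 20.6%, the regenerative-like cluster 15.9% and the enterocyte-like clusters 11.5%. Lgr5 and Olfm4 were among the leading genes of the stem-like cluster, Anxa1 and Il1rn among those of the regenerative-like cluster, and the endocrine genes Chgb, Cck and Chga stood beside goblet genes in the goblet-like cluster. The other 6 clusters, with 18.8, 24.9, 45.6 and 53.9% of the cells at 0, 6, 15 and 24 h, went unnamed and ran from 7.44 to 25.5%. Predicted genes and pseudogenes led 2 of them, and small nuclear RNA genes led 1 other. That last cluster held 26, 16, 50 and 366 cells at 0, 6, 15 and 24 h, and its share at 24 h was 8.26%. Its median UMI count was 0.504 of that of the library, and 7.83% of its UMIs were mitochondrial. Its part in the lower share of the 24 h library was not tested. In stem-like cells the share was 28.5, 27.3, 27.2 and 24.9% at 0, 6, 15 and 24 h (365, 436, 472 and 384 cells). In proliferating-like cells it was 24.9, 23.5, 23.7 and 22.3% (837, 1315, 430 and 207 cells). Both were lowest at 24 h, by less than the gap between these classes and the enterocyte-like cells. In goblet-like cells it was 23.2, 21.6, 21.2 and 15.8% (64, 90, 69 and 78 cells). Regenerative-like cells went the other way, with 14.7, 15.3 and 16.3% at 6, 15 and 24 h (29, 116 and 198 cells) and only 12 cells at 0 h.

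Enterocyte-like cells were made of a cluster led by Ces1d and Sis and a cluster led by Cyp3a11 and Lct, and their mixture changed with time. The first held 896 cells at 0 h and 1 at 24 h, and its share was 14.4, 13.8 and 12.6% at 0, 6 and 15 h. The second held 207 cells at 0 h and 155 at 24 h, and its share was 7.85, 8.61, 8.49 and 8.94% over the 4 times. So the class mean of 13.2% at 0 h and 8.99% at 24 h came from different clusters, and the second cluster was not lower at 24 h than at 0 h. Lower shares at 24 h thus appeared within stem-like, proliferating-like and goblet-like cells and beside a change in the mixture of clusters. How much of the library difference each accounts for was not tested.

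**Figure D5:**
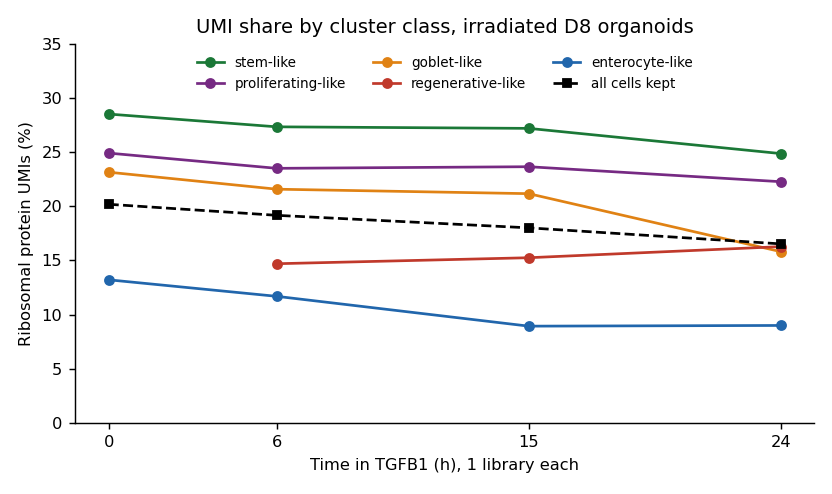
Share of UMIs held by ribosomal protein genes (y axis, percent) by cluster class over hours in TGFB1 (x axis, 1 library each); each line is a class, and libraries with under 20 cells of a class are left out. Stem-like cells go from 28.5 to 24.9% and enterocyte-like cells from 13.2 to 8.99%, while regenerative-like cells stand at 14.7 to 16.3%.

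In sorted Ki67-RFP+ crypt cells the share was 24.4% in the non-irradiated library and 22.7 and 21.7% in the 2 irradiated libraries. The 3 libraries held 1846, 719 and 699 cells with a median of 11969, 14399 and 13500 UMIs, and with 1 non-irradiated library there is no test. Of 82 members with at least 100 UMIs in each library, 13 were at least 1.2-fold lower in both irradiated libraries and 2 were higher, while 18.4% of all genes were lower and 35.9% higher. Between the 2 irradiated libraries 0 members were past this fold in either direction. Rps13 had the lowest ratio, going from 2131 CPM without irradiation to 1037 and 1157 CPM after it. Rpl23a went from 4409 to 3302 and 3051 CPM. Rps7 went from 3410.1 to 2594 and 2359.6 CPM, and Rps27 from 5319 to 3986 and 3892 CPM. The members past the fold upward were Rpsa and the p53 target Rps27l. Rpsa stood at 3146 CPM without irradiation and at 4472 and 4481 CPM after it. Rps27l stood at 1248 CPM and at 1531 and 1766 CPM. The stem-like cluster of these cells (637 cells, 28.7%) and the proliferating-like cluster (426 cells, 22.9%) came wholly from the non-irradiated library, and the regenerative-like cluster (277 and 367 cells, 22.4 and 22.3%) wholly from the irradiated ones. Unnamed clusters held 320 cells of the non-irradiated library (24.4%) and 391 and 273 cells of the irradiated ones (23.3 and 22.03%). At a clustering resolution of 0.3 the regenerative-like cluster took in 664 and 638 irradiated cells. Goblet-like cells, present in all 3 libraries, held 21.8% without and 20.3 and 21.1% with irradiation (67, 38 and 20 cells). The lowest share, 3.10%, was that of 45 mature enterocyte-like cells led by Apoa4 and Apoa1, 33 of them in the irradiated replicate 2 library.

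Some UMI entries were deposited as fractions, as STARsolo can give when reads fit several genes, and ribosomal protein genes carried more of them than other genes. Entries that were not whole numbers (off by more than 0.001) held 14.1, 12.4, 14.3 and 19.6% of ribosomal protein UMIs at 0, 6, 15 and 24 h, against 6.96, 6.62, 7.27 and 10.1% of the UMIs of other genes. In the Ki67-RFP+ libraries the shares were 27.3% without and 34.0 and 33.3% with irradiation, against 9.92, 18.2 and 16.9% of other UMIs. The median over the 77 subunit genes was 10.4%, with 23 genes under 5% and 9 at 50% or more. These 9 were Rpl17, Rps23, Rps18, Rpl37, Rplp2, Rpl41, Rps2, Rpl36 and Rpl21, and Rpl21 was highest at 88.1%. Classes of low bulk FPKM had higher fractional shares, with medians of 18.9, 13.7 and 6.61% from the lowest to the highest FPKM class. From whole-number entries alone the library shares were 18.9, 18.2, 16.9 and 15.1% in organoids and 20.7, 19.1 and 18.2% in Ki67-RFP+ cells, in the same order as with all entries.

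Other parts of the translation machinery were listed for comparison. Of 59 ribosome biogenesis factors, which build the subunits in the nucleolus, 10 were lower and 12 higher in non-irradiated D7 organoids, 56 were lower and 1 higher at irradiated D7, and 3 were lower and 34 higher at D11. Their median changes were -0.00, -0.68 and 0.24, so at D11 they moved opposite to most ribosomal protein genes. Rrp1b, Rrp12 and Nat10 fell by 1.198, 1.197 and 1.18 at irradiated D7 (limma adjusted p = 4.69e-08, 2.62e-08 and 1.24e-08). At D11 Bop1, Bysl and Ddx21 rose by 0.89, 0.72 and 0.71 (limma adjusted p = 2.22e-05, 1.51e-05 and 6.15e-05). In Ki67-RFP+ cells 54 of 60 biogenesis factors were at least 1.2-fold higher in both irradiated libraries and 0 were lower, with a median ratio of 1.93, against 0.924 for the ribosomal protein genes. Over all genes 35.9% were higher and 18.4% lower in this comparison, with a median ratio of 1.11. Mitochondrial ribosomal protein genes, encoded in the nucleus, were lower for 50, 65 and 22 of 76 and higher for 2, 1 and 5 in the 3 bulk conditions. All 6 genes with an elongation factor symbol (Eef) fell at irradiated D7. At D11 4 of the 6 fell, led by Eef1b2 at -0.81 (SE 0.103, limma adjusted p = 9.35e-05). Eef1e1, in this list by its symbol only, rose by 0.54 at D11 (SE 0.0731, limma adjusted p = 0.000145). Of 29 initiation factors 12 were higher and 6 lower, 4 higher and 20 lower, and 12 higher and 8 lower in the 3 conditions. For all these lists the shares over all genes were 33.3, 35.8 and 32.3% higher and 34.9, 39.7 and 31.6% lower. Myc, a driver of ribosome production, rose by 0.55 without irradiation (SE 0.0329, limma adjusted p = 8.88e-08), fell by 0.36 at irradiated D7 (SE 0.0359, limma adjusted p = 5.39e-06) and had a change of 0.12 at D11 (SE 0.0783, limma adjusted p = 0.199). Mycn rose by 2.26, 2.27 and 1.72 (limma adjusted p = 2.42e-09, 5.85e-10 and 3.8e-06), and Larp1 fell by 0.59 at irradiated D7 (SE 0.0341, limma adjusted p = 7.09e-08).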

How the data were processed

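Bulk RNA-seq values were FPKM that the authors deposited as 3 gene tables of 6 libraries each, and single-cell values were expected counts (UMIs, some of them fractions, for a reason the labels do not state) that the authors deposited as 7 matrices of 54307 genes. Per the submitters' processing notes the tools included TopHat2 2.1.0, Cuffnorm 2.2.1, STARsolo, STAR 2.7.10a and Salmon 1.4, with the builds mm9, GRCm39 and mm39 named and no role given to any of these. The sources used here do not say how the bulk tables treat reads that fit several genes.

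The exclusion of names ending in l and a digit was read as a suffix after the protein number (such as Rpl22l1), since the literal reading would drop Rpl3 or Rpl10. Rps6 kinases, Rps19bp1 and Rps23rg1 match by spelling and were kept apart. The paralog list was extended after the files were seen with Rpl32l, Rpl37rt, Rpl6l, Rps3a2 and Rps3a3. The members, lists and tests were chosen with earlier results of these data known.

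Differences were tested per table with limma 3.58.1 (R 4.3.3; trend and robust moderation, no replicate block) on log2(FPKM + 1) over all genes averaging 1 FPKM or more, with Benjamini-Hochberg adjustment and a threshold of 0.05. Changes on this scale understate those of genes with low FPKM. Interactions were fitted over the 12 libraries of 2 tables, where each effect is taken within its table. The fits were tested on simulated data. Named genes were the 5 largest called changes in each direction per comparison, the 5 highest and lowest levels, a panel (Rplp0, Rplp1, Rplp2, Rpl5, Rpl11, Rpsa, Rps27a, Rps6, Rps19), the paralogs and spelling matches, the 5 largest single-cell changes in each direction, and up to 3 genes of other lists. Genes given beside a sequence, and Rpl8, Rpl35 and Rps10 where they fall outside these, were added as examples after values were seen.

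Cells needed 500 UMIs, 250 genes and at most 20% mitochondrial UMIs. Counts were summed per library for shares and CPM, with exact 95% intervals for counting error. A member counted as past the fold at a ratio of 1.2 among genes with 100 UMIs in each library. Clusters came from scanpy 1.11.5 (2000 variable genes without ribosomal protein genes, 30 components, 15 neighbours, Leiden resolution 0.6), and doublets were not removed. A cluster was named where its best marker class had a median fold of at least 2, at least 3 detected markers and a marker among the top 10 genes, a rule set after the data were seen. A cluster mostly of 1 library may be that library rather than a cell type. The chromatin accessibility files were not used here, and 0 columns of the tables were left unmapped. A few genes that the naming rule takes are not reported here.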

Additional observations from a re-analysis of the deposited data

Results flagged for a closer look

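The effect of TGFB1 at D7 differed between irradiated and non-irradiated organoids for 3 ribosomal protein genes in the upward and 33 in the downward direction, by the limma interaction term, while 25.3% of all genes differed upward and 27.8% downward. The differences on the log2 scale were 0.86 for Rpl13, 0.86 for Rpl37 and 0.54 for Rpl39. They were -1.21 for Rpl26, -1.01 for Rpl34, -0.83 for Rpl30, -0.75 for Rps27a and -0.66 for Rps7. These compare effects within separate tables, and Rpl26 had the widest spread between libraries among them. Rpl13 and Rpl26 also differed widely in vehicle level between the 2 D7 conditions. The difference of Rpl39 was not called in a single fit of all 18 libraries (limma adjusted p = 0.141). The 33 include Rpl29, which lay under 1 FPKM in every non-irradiated library, so its difference restates its irradiated fall.

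Between irradiated D7 and D11 the effect differed upward for 12 and downward for 24 of 71 genes, against 31.5 and 33.0% of all genes. After quantile normalization 21 differed upward and 12 downward, against 3929 and 3543 of 11456 over all genes. The upward differences were 2.00 for Rpl5, 1.84 for Rpl34, 1.32 for Rpl26, 1.31 for Rpl30 and 1.30 for Rps27a. The downward differences were -0.99 for Rpl39, -0.93 for Rps14, -0.78 for Rpl23, -0.78 for Rpl22 and -0.74 for Rpl13.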

How the results depend on the processing

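The counts of falls with TGFB1 held within 1.5 times in most fits, and the exceptions follow. With a change of at least 1.5-fold also required, 0 genes were higher and 1 lower in non-irradiated D7 organoids, 1 higher and 14 lower at irradiated D7, and 4 higher at D11, while the irradiation difference kept 5 lower and the day difference 8 lower. Over all genes this requirement left 1267 higher and 956 lower of 11330 without irradiation, and 1706 and 1610 of 11258 at irradiated D7. At D11 1537 of 11479 were higher, and 916 of 11411 and 2282 of 11456 were lower in the differences. In a single fit of all 18 libraries, 18 of 74 were lower without irradiation and 18 of 74 in the irradiation difference. Over all genes 3437 of 11330 and 2601 of 11411 were lower in that fit. The first count lay below the share of all genes and the second near it. Scaling to equal FPKM outside the class gave 2 higher at irradiated D7 and 14 lower in the day difference. Over all genes 3060 of 11264 and 2540 of 11479 were so. Quantile normalization gave 21 higher and 12 lower in the day difference, against 3929 and 3543 of 11456 over all genes. It turned that difference for Rplp0 to 0.26 (limma adjusted p = 0.0153) and for Rplp1 to 0.10 (limma adjusted p = 0.311). A mean of at least 5 FPKM left 3 higher at D11 and 6 higher in the day difference. Over all genes 3047 of 8999 and 3059 of 8950 were higher with this filter. Among members of at least 50 FPKM, an alternative chosen after seeing the data, 1 was higher in each of the 3 conditions and in the irradiation difference, 36 were lower at irradiated D7, and 2 were higher in the day difference. Where fewer genes were tested or a larger change was required, the lower counts follow from that; otherwise the cause was not tested.

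Leaving out each library in turn gave 2 to 4 higher and 31 to 39 lower without irradiation, 2 to 4 higher and 51 to 54 lower at irradiated D7, and 4 to 7 higher and 47 to 53 lower at D11. The irradiation difference ranged over 3 to 4 higher and 27 to 37 lower, and the day difference over 12 to 14 higher and 19 to 40 lower. Libraries that moved a count by over 1.5 times were non-irradiated vehicle replicate 1 (4 higher), irradiated D7 vehicle replicate 1 (2 higher), D11 TGFB1 replicate 1 (4 higher) and D11 vehicle replicate 1 (40 lower in the day difference). Over all genes these fits gave 3556 of 11345 higher, 3886 of 11270 higher, 3192 of 11471 higher and 3914 of 11429 lower. Mean FPKM shares without a library ranged over 6.39 to 6.48 and 5.59 to 5.67% without irradiation, 5.04 to 5.18 and 3.76 to 3.84% at irradiated D7, and 7.24 to 7.86 and 4.94 to 5.20% at D11 (vehicle and TGFB1). With the replicate number as a block the counts were 2 higher and 40 lower, 3 and 56, and 7 and 53 in the conditions. They were 2 and 33, and 12 and 27 in the differences. Over all genes the fits with the block gave 3767 and 3934 of 11330, 3985 and 4432 of 11258, and 3700 and 3651 of 11479. In the differences they gave 2848 and 3116 of 11411, and 3601 and 3795 of 11456. Same-numbered libraries correlated at -0.0856 to 0.213. Some libraries correlated best with their own number and some did not, so these values cannot settle whether a number marks a shared batch. The block also ended the call of Rpl13 in the day difference (limma adjusted p = 0.0838). It ended those of Rpl37 at irradiated D7 (limma adjusted p = 0.0696) and in the irradiation difference (limma adjusted p = 0.0563). The calls of Rpl34 at D11 (limma adjusted p = 0.0662) and Rps2 without irradiation (limma adjusted p = 0.0655) ended too. Rpsa gained a call in the day difference (limma adjusted p = 0.0432).

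The organoid UMI shares at 0, 6, 15 and 24 h were 18.9, 18.2, 16.9 and 15.1% from whole-number entries, 20.5, 19.6, 18.8 and 17.1% in stricter cells, 20.9, 19.9, 19.0 and 17.4% without mitochondrial genes, and 20.3, 19.6, 17.7 and 14.8% for the median cell. In Ki67-RFP+ cells (1 library without and 2 with irradiation) these were 20.7, 19.1 and 18.2%, 24.6, 22.8 and 22.002%, 25.3, 23.2 and 22.4%, and 24.1, 21.4 and 21.2%. At a clustering resolution of 0.3 the organoid shares were 11.0% for enterocyte-like, 19.8% for goblet-like, 23.6% for proliferating-like, 12.2% for regenerative-like and 26.7% for stem-like cells, and in Ki67-RFP+ cells 20.02% for enterocyte-like and 22.6% for regenerative-like cells, where no stem-like or proliferating-like class was found.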
